A study of Drosophila melanogaster with 3 samples.

Results

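Crp, the protein of the gene cropped, was mapped by ChIP-seq at 742 intronic sites that carry no AP-4 E-box at their centre. They were taken from the 5460 peaks that passed the authors' threshold of the irreproducible discovery rate (IDR, a measure of how far peak ranks repeat between replicates), and made up 13.6% of them. A peak was included when its summit, the deposited point of highest signal, lay more than 500 bp from every start of a protein-coding transcript, outside exons and inside an intron of a protein-coding gene, with no CAGCTG lying whole within 50 bp. Only exons of protein-coding transcripts counted as exons, so a summit in an exon of a non-coding gene could be included. Of the 5460 summits, 3975 lay within 500 bp of a start, 82 in exons, 993 in introns and 410 between genes. The 742 sites were thus 74.7% of the intronic summits, and the other 251 intronic summits had CAGCTG.

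All 3 samples belonged to 1 group, mixed-sex whole embryos of a crp-GFP line collected from 0 to 24 h and labelled as biological replicates 1, 2 and 3. The line was a stable transgenic with GFP joined to the C terminus of crp, the labels call it an insertion targeting crp, and the precipitation used an antibody to GFP. The labels do not say whether the native gene remained, so all values describe the tagged protein in a mixture of stages, tissues and sexes. There was no other genotype or treatment, and no control library was used here. The comparisons below are therefore between these sites, their own flanking sequence, the intronic sequence in which they could have lain, and the 2 most similar classes of peak.

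Crp is the fly member of the AP-4 family of basic helix-loop-helix factors, and cropped was named for its role in tracheal terminal branching. Such factors bind as dimers to E-boxes, written CANNTG, and the AP-4 family is known for the form with GC at its centre, CAGCTG. Fly introns, first introns above all, are known to hold many enhancers, and a ChIP peak marks where a protein is near DNA, directly or through other proteins.

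Replicate 2 stood apart for these sites, and this bears on several of the results below. The strongest list of a replicate means here its 5460 peaks of highest signal, and a site was found in it when a summit lay within 100 bp. Replicate 2 held 630 of the 742 sites (84.9%), replicate 1 held 373 (50.3%) and replicate 3 held 329 (44.3%). The intronic peaks with CAGCTG had another order, with 55.4% in replicate 2, 68.1% in replicate 1 and 91.6% in replicate 3. Applied to each replicate's own strongest list, the same rule gave 602, 999 and 465 sites in replicates 1, 2 and 3, a mean of 688.7 ± 277 (SD, n = 3). Results were therefore also computed in each replicate's own list and without each replicate, from the summits within 100 bp of each other in the strongest lists of the other two, which gave 262, 298 and 344 sites without replicates 1, 2 and 3. Support in the replicates was the exception: leaving out a replicate kept all IDR peaks and counted those in both other strongest lists. The depth of the libraries is unknown. Signal is the authors' value on the scale of their peak caller; relative signal below sets it against that replicate's own scale, with the median signal of its strongest list as 1.

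The sequences around the strongest sites show what lies at the summits besides CAGCTG, which the rule bars from them. They are the genome's + strand within 50 bp of the summit, from the RefSeq copy of dm6, for 9 of the 15 strongest sites found in the strongest lists of all 3 replicates. Capitals mark any other E-box and any TATAAA on either strand, TTTATA being its reverse. The CycE site lies at chr2L:15747224-15747324, the ush site at chr2L:481030-481130, and the CG11050 site at chr2L:6612657-6612757. The first crp site lies at chr2L:16269569-16269669 in the second intron and the other at chr2L:16280009-16280109 in the first. The Trl site lies at chr3L:14759461-14759561, the Dhc64C site at chr3L:4824882-4824982, the CG32772 site at chrX:4910320-4910420 and the Ubr3 site at chrX:7938340-7938440.
CycE, first intron: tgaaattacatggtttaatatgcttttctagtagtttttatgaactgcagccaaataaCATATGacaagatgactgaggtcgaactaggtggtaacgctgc
crp, second intron: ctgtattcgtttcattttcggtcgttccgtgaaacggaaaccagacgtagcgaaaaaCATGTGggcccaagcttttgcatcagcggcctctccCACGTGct
crp, first intron: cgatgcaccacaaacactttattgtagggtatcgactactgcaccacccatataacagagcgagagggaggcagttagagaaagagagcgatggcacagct
ush, first intron: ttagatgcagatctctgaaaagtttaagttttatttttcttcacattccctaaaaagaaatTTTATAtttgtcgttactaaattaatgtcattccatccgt
CG11050, second intron: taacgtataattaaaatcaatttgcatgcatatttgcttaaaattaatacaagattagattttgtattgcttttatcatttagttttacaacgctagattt
Trl, second intron: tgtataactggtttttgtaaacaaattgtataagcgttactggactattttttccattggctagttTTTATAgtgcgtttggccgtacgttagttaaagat
Dhc64C, first intron: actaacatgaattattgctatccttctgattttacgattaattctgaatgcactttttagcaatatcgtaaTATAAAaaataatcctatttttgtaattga
CG32772, second intron: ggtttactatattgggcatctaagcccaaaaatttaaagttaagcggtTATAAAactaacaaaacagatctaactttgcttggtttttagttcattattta
Ubr3, first intron: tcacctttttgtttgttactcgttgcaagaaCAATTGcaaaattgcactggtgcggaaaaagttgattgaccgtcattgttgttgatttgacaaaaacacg

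Other E-boxes are marked in CycE, in Ubr3 and in the second intron of crp, whose pair includes CACGTG. The letters of the TATA box are marked, on either strand, in ush, Trl, Dhc64C and CG32772. The first-intron crp site shows neither, and its window ends inside a CAGCTG whose last base lies 51 bp from the summit, 1 base past the limit of the rule. Several of the windows are rich in A and T, and the G and C content was 21.8% at CG11050 and 23.8% at Dhc64C against 51.5% at the second-intron crp site. Of the 15 strongest sites, 11 had CAGCTG somewhere in the deposited peak, and 3 had none within 500 bp of the summit.

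The strongest site was in CycE, the gene of Cyclin E, which drives entry into S phase. It lay in the first intron, 876 bp from the start of that transcript and 664 bp from the nearest start, and its relative signal was 5.41, 7.20 and 6.89 in replicates 1, 2 and 3, a mean of 6.50 ± 0.957 (SD, n = 3). CycE was thus several times above the median strong peak in every replicate. The ush site, in the gene of the GATA cofactor U-shaped, had 5.82, 8.14 and 3.99, a mean of 5.98 ± 2.08. The site in CG11050, inside an intron of only 140 bp, had 4.73, 7.64 and 3.33, a mean of 5.23 ± 2.20. In both genes replicate 2 was highest and replicate 3 lowest.

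The second-intron site of crp itself had the largest SD of the 15 leading sites, with a relative signal of 8.59, 2.49 and 11.4, a mean of 7.50 ± 4.57 (SD, n = 3). Here replicate 2 was the lowest, as it was in Mef2, the gene of a muscle transcription factor, with 4.28, 2.02 and 5.79. Replicate 2 was the highest at 12 of the 15 leading sites and replicate 3 at the other 3, which were Mef2 and 2 sites of crp. The weaker of those, also in the second intron, had 2.06, 1.34 and 4.63 and a CAGCTG 57 bp from the summit. Since crp is the tagged gene, the construct may bear on the signal there, which was not tested. Trl, the gene of the GAGA factor, had 2.61, 4.42 and 1.61. Lk6, a kinase that phosphorylates the translation factor eIF4E, had 2.05, 5.77 and 2.04, so that replicate 2 alone stood out. HmgZ, which encodes an HMG-box chromatin protein, had 2.37, 5.78 and 1.27. The other leading sites lay in CG12769, CG9663, CG32772, the ubiquitin ligase gene Ubr3 and Dhc64C, the gene of a dynein heavy chain, with means of 1.96 to 2.99.

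Set against the whole IDR list these were mid-ranking to weak peaks. Their best rank by signal was 632, that of CycE, and their median rank was 3864.5, against 3012 for the intronic peaks with CAGCTG. With the list cut into quintiles by signal, from the strongest to the weakest, 7, 92, 174, 206 and 263 of the 742 sites fell in each. Those 7 were 0.943% of the sites, against 19 of 251 (7.57%) for the intronic peaks with CAGCTG, a difference of -6.63 percentage points (Fisher's exact test, two-sided, p = 2.9e-07). Within the replicates' own lists the shares were 1.33%, 1.70% and 1.08% against 7.39%, 9.93% and 7.03%, in the order of replicates 1, 2 and 3, and lower in all 3.

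First introns held most of the sites. Of the 742, 407 lay in a first intron (54.9%, 95% Wilson interval 51.3% to 58.4%), 223 in a second (30.1%), 48 in the third (6.47%) and 64 further on (8.63%). Eligible bases, meaning all intronic bases that meet the rule on starts and exons, were 29.8%, 26.9%, 12.4% and 30.9% in the same order. The intronic peaks with CAGCTG had 61.0% in first introns, and the difference from the sites was not tested. The first-intron share was 1.84 times that of the bases (exact binomial test, two-sided, p = 2.3e-45), and 57.0%, 51.9% and 57.6% in replicates 1, 2 and 3, a mean of 55.5% ± 3.17 (SD, n = 3). The order is that of the longest transcript with an intron at the site. In an alternative, a site that is first in any transcript was counted as first, which gave 73.5%. Its test counted eligible bases by that rule too, so 73.5% is not to be set against the 29.8% above. For the 54.9%, against the eligible bases of the host genes only, 31.3% of which were in first introns, the exact p was 5.3e-40.

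The sites also crowded toward gene starts, up to the 500 bp limit of the rule. Between 500 and 1000 bp from the nearest start lay 178 sites (24.0%) against 7.43% of eligible bases, 3.23 times the share (exact binomial test, two-sided, p = 2.3e-44). In replicates 1, 2 and 3 this share was 29.4%, 20.9% and 26.7%. Of the intronic peaks with CAGCTG, 32.7% lay there. From 1000 to 2000 bp the shares were 22.6% of sites and 11.9% of bases, and beyond 10000 bp they were 10.2% and 37.99%. The median distance to the nearest start was 2293 bp, and the median from the start of the host transcript 6018 bp. Just inside the limit, from 500 to 600 bp, lay 49 sites. Just outside it, from 400 to 500 bp, lay 99 summits without CAGCTG that count as promoter peaks. Those 99 were not limited to introns, so the 2 counts are not alike.

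At each distance the share of first introns was higher among sites than among eligible bases. From 500 to 1000 bp, 65.7% of sites against 54.6% of eligible bases were in first introns, and from 1000 to 2000 bp 66.1% against 46.8%. From 5000 to 10000 bp the shares were 44.3% and 30.2%, and beyond 10000 bp 34.2% (26 of 76 sites, 95% Wilson interval 24.5% to 45.4%) and 14.6%. These within-distance shares are a description with no test. The introns were long, with a median of 10596.5 bp and a range of 140 to 126467 bp, and 38 sites lay in the only intron of their transcript.

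**Figure D1:**
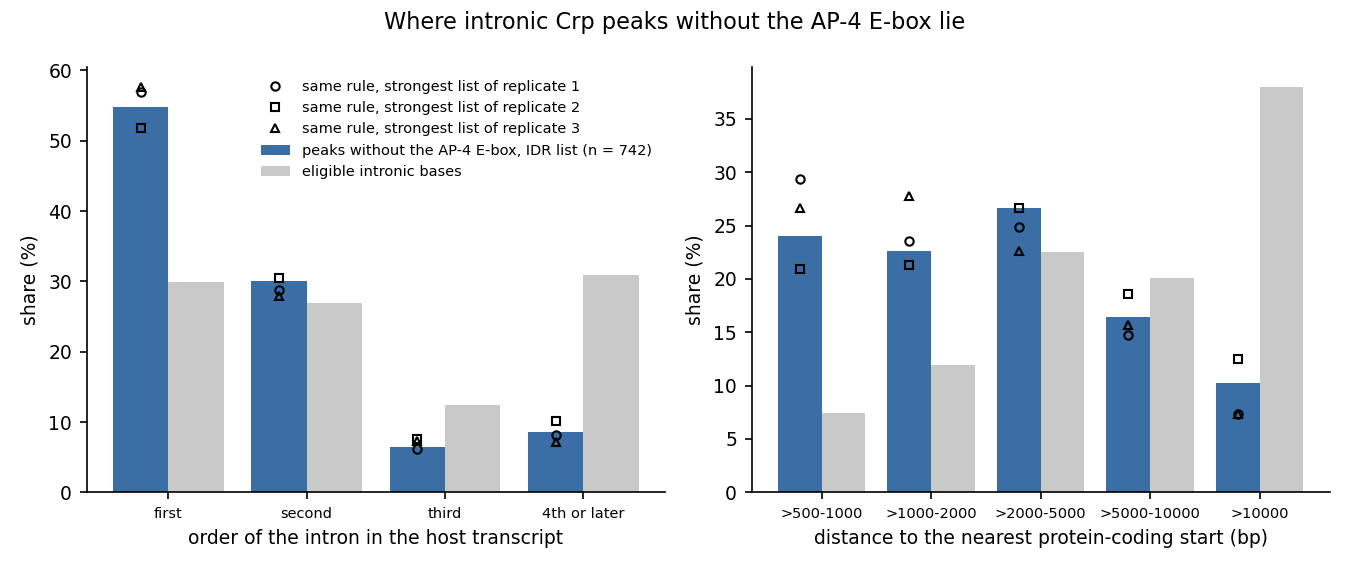
Shares of sites by intron order (left) and by distance to the nearest protein-coding start (right), in percent. Blue bars are the 742 sites, grey bars the eligible intronic bases, and open symbols the same rule in each replicate's strongest list; first introns held 54.9% of sites and 29.8% of bases, and 24.0% of sites lay 500 to 1000 bp from a start against 7.43% of bases.

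Starts of genes that are not protein-coding, which the rule did not use, lay within 500 bp of 28 sites (3.77%) against 1.39% of eligible bases (exact binomial test, two-sided, p = 3.1e-06). The share was 3.32%, 3.10% and 3.66% in replicates 1, 2 and 3, a mean of 3.36% ± 0.278 (SD, n = 3). Of the 28, 25 were starts of genes or transcripts annotated as ncRNA, 2 of tRNAs and 1 of a snoRNA, and 7 of the sites were in the strongest lists of all 3 replicates. Whether any of the 28 sites lay in an exon of such a gene was not tested. The strongest was in gce, the gene of a juvenile hormone receptor, 287 bp from the start of asRNA:CR44429. beat-Ib, a gene of an immunoglobulin-domain axon guidance family, held 3 such sites near lncRNA:CR44867 and lncRNA:CR44868. Others were in osa, which encodes a Brahma complex subunit, 180 bp from lncRNA:CR46036, and in puc, a phosphatase gene of the JNK pathway, 43 bp from lncRNA:CR44331.

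Across the chromosomes, X held 169 sites (22.8%) against 18.1% of eligible bases (exact binomial test, two-sided, adjusted p = 0.00408). In the replicates' own lists X held 18.8%, 24.5% and 19.6%, and of the 3 replicate 2 alone passed (exact p = 3.9e-07). Without replicate 1 the share was 22.1% and without replicate 2 it was 21.8%, and neither passed the test. Chromosome 4 held 1 site (adjusted exact p = 0.0147) and Y none (adjusted exact p = 1.8e-05), against 1.06% and 1.79% of eligible bases. For Y, 0 of 742 allows a share of up to 0.404%. In the smaller lists without replicate 1 and without replicate 2, with 1 site on 4 and 0 on Y in each, both calls were lost, and that for chromosome 4 was also lost without replicate 3 (0 of 344). The 4 arms of chromosomes 2 and 3 did not pass the test, with adjusted exact p from 0.141 to 0.923. No site lay in an annotated transposable element, which covered 6.68% of eligible bases, and 151 sites (20.4%) against 23.2% of bases were in the soft-masked repeats of the assembly. The base shares take no account of how well reads map to repeats or Y, nor of chromosome number in embryos of mixed sex.

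The sites were found in all replicates less often than their intronic neighbours with CAGCTG. All 3 strongest lists held 197 of 742 (26.5%) against 106 of 251 (42.2%), a difference of -15.7 percentage points (Fisher's exact test, two-sided, p = 5.6e-06). Replicate 2 alone held 266 sites (35.8%), replicate 3 alone 32 (4.31%) and replicate 1 alone 11 (1.48%), and 20 were in none. Of the peaks with CAGCTG, 9 (3.59%) were in replicate 2 alone and 50 (19.9%) in replicate 3 alone. The call was lost without replicate 3 and among the stronger peaks. Here leaving out a replicate kept the same 742 and 251 peaks and counted those in both other strongest lists. Without replicate 3 the difference was -2.84 points (exact p = 0.461), without replicate 2 it was -31.8 points, and over the stronger 50% of the IDR list it was 2.49 points (exact p = 0.669). In the whole relaxed lists all 3 replicates held 566 of the sites (76.3%) and 79.3% of the peaks with CAGCTG (exact p = 0.341).

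Intergenic peaks without CAGCTG ranked the replicates much as the intronic ones did, with replicate 2 far ahead. Of those 331, 42.3%, 91.2% and 41.7% were in the strongest lists of replicates 1, 2 and 3, and 89 (26.9%) were in all 3. The difference from the intronic sites was -0.338 percentage points (Fisher's exact test, two-sided, p = 0.94), and its sign changed under several settings. The interval of the intronic share ran from 23.5% to 29.8% and that of the intergenic share from 22.4% to 31.9%. Of sites with a match in all 3 whole lists, the relative signal was highest in replicate 2 for 435 of 566 intronic sites (76.9%) and 218 of 256 intergenic ones (85.2%). For the intronic peaks with CAGCTG it was highest in replicate 3 for 165 of 199 (82.9%). Because the IDR list was drawn from these replicates, finding its peaks in them is partly built in, which holds for each class.

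**Figure D2:**
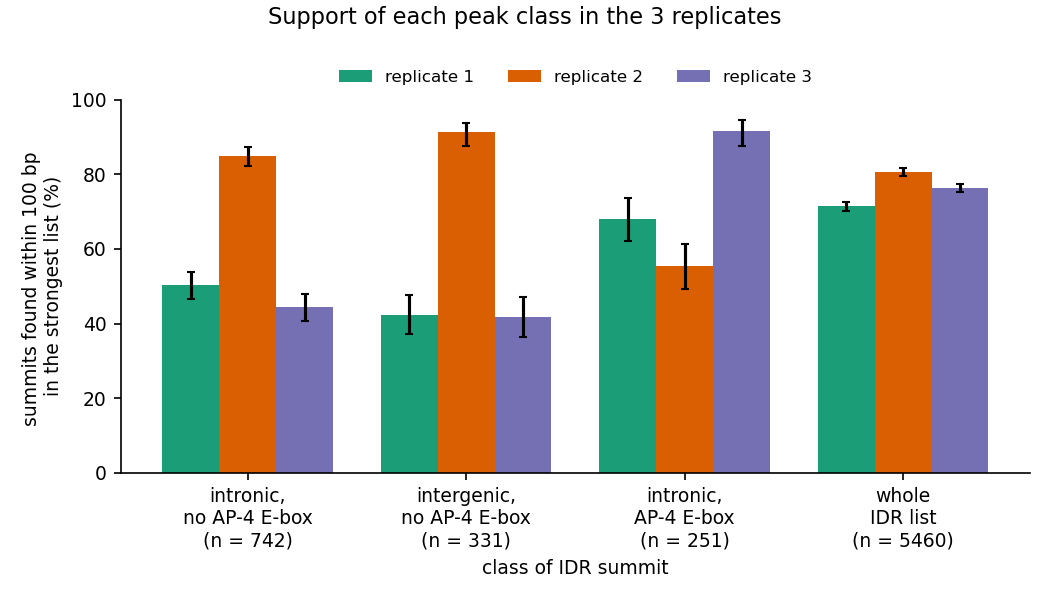
Percentage of summits of 4 classes of IDR peak that had a summit within 100 bp in the strongest list of replicate 1, 2 and 3; error bars are 95% Wilson intervals, which cover counting error only. Replicate 2 held 84.9% of the intronic and 91.2% of the intergenic peaks without the AP-4 E-box, whereas replicate 3 held 91.6% of the intronic peaks with it.

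The DNA at the summits was rich in A and T. The G and C content within 50 bp was 34.5% ± 9.42 (SD over 742 sites), against 41.6% ± 9.58 in windows of the same width 500 bp toward higher coordinates. These flanks were not held to the rule on exons and starts, so some can lie in exons or near starts. How far this bears on the comparisons with flanks was not tested. In the replicates' own lists the G and C content was 36.6%, 33.1% and 39.4% at summits and 41.6%, 42.2% and 40.9% in flanks, lower at the summit in all 3 but by the least in replicate 3. The 197 sites in all 3 strongest lists had 34.0% and 41.7%. The 112 sites outside the strongest list of replicate 2 had 42.3% at the summit and 41.2% in the flank, so they did not share the pattern. Intergenic peaks without CAGCTG had 34.9% and 41.7%, and intronic peaks with CAGCTG had the reverse, 47.2% and 39.1%, part of which their own GC-rich site adds.

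Among all hexamers but CAGCTG, reverse complements joined, 117 of 2079 had a higher share at summits than in flanks (5.63%) and 115 less frequent (5.53%; exact McNemar test, two-sided, Benjamini-Hochberg adjusted over all). Of the 117, 30 had no letter G or C and 70 had 1, and of the 115, 54, 36 and 7 had 4, 5 and 6. The lowest p belonged to ATATTA, present at 20.5% of summits and 8.63% of flanks, and AATAAT followed with 26.0% and 13.3%. TATTAA was at 17.9% and 7.55%, ATTTTA at 28.0% and 15.4%, and TATAAA at 23.3% and 11.99%. TAAATA, the last of the 6, was at 28.3% and 16.2%. Among those depleted, GCAACA was at 5.39% of summits and 13.3% of flanks. These hexamers overlap one another and follow the base composition, so their number does not count separate motifs.

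Most hexamer calls were lost in the lists without 1 replicate. Without replicate 1 and without replicate 2 the same exact McNemar test called 0 hexamers after adjustment, with 221 and 124 at an unadjusted p under 0.05. Without replicate 3 it called 50, of which 40 were among the 232. Of those 232, 228, 206 and 231 kept their direction in these 3 lists, in the same order. The 197 sites in all 3 strongest lists also gave 0 calls, with 152 at an unadjusted p under 0.05, and 230 of the 232 in the same direction. With 1 site per host gene (504 sites) the test called 120, of which 100 were among the 232, and over 1000 bp from every start (564 sites) it called 114, of which 106 were among them.

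**Figure D3:**
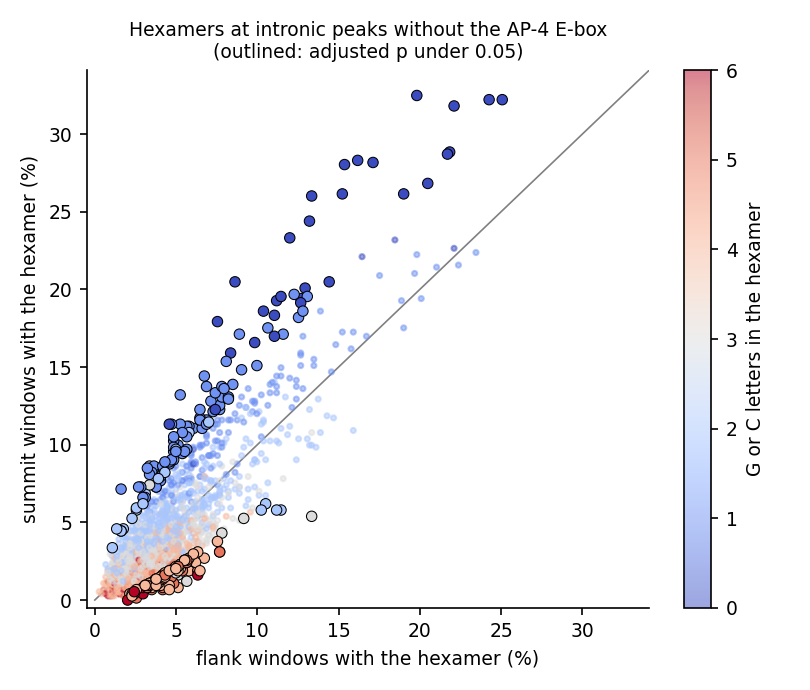
Each point is 1 of 2079 hexamers, placed by the percentage of flank windows (horizontal) and summit windows (vertical) that hold it on either strand, and coloured by its number of G or C letters; outlined points passed an adjusted p under 0.05. Outlined points above the diagonal of equal shares are mostly AT-rich hexamers (117 higher at summits), and those below it are mostly GC-rich (115 lower).

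A list of 40 fixed motifs of E-boxes, embryonic factors and core promoters was also tested against the flanks, and 1 was more frequent at the sites (2.5% of the list) and 2 less frequent (5% of the list). TATAAA, the letters of the TATA box, was at 173 sites (23.3%) and 89 flanks (11.99%; exact McNemar test, two-sided, adjusted p = 9.4e-07). Its share was 20.8%, 23.4% and 16.6% at the summits of replicates 1, 2 and 3 and 11.8%, 13.5% and 12.7% in their flanks, and replicate 3 did not pass the test (adjusted exact p = 0.495). The difference was 8.40 percentage points without replicate 1 and 7.72 without replicate 2, and in these smaller lists it did not pass (adjusted exact p = 0.412 and 0.491). At the 112 sites outside the strongest list of replicate 2 TATAAA was at 13.4% of summits and 11.6% of flanks. The window of 25 bp gave 3.10 points (adjusted exact p = 0.277). None of these tests against flanks, here or for CATTCC and CCGCTG below, takes the lower G and C content of summits into account. Of the hexamers with no G or C, 30 were higher at summits and 6 were not called. Whether TATAAA exceeds what the base composition gives was not tested.

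CATTCC, the core of the site of the Hippo pathway factor Scalloped, was at 9 sites (1.21%) and 42 flanks (5.66%; adjusted exact p = 6.8e-05). It was lower at the summits in each replicate, 2.33% against 5.81%, 2.00% against 5.91% and 1.51% against 5.16%. It did not pass without replicate 1 or without replicate 2, where the difference was -2.67 and -4.03 percentage points. CCGCTG, which is 1 base from the AP-4 site, was at 16 sites (2.16%) and 40 flanks (5.39%; adjusted exact p = 0.0200). CCGCTG was called within replicate 2 only, with 4.30% against 4.09% in replicate 3, and without replicates 1, 2 and 3 in turn its difference of -3.82, -2.01 and -2.91 percentage points did not pass. CCGGAAG, the ETS factor site, was at none of the 742 sites, which allows a share of up to 0.404%, and at 8 flanks (adjusted exact p = 0.0625).

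Other E-boxes showed no excess past the threshold as a group. Any other CANNTG lay within 50 bp of 285 sites (38.4%) and of 36.4% of flanks (exact McNemar test, two-sided, p = 0.461). The share differed with the replicates that held the sites. It was 54.5% at the 112 sites outside the strongest list of replicate 2. At the 266 sites in that list alone it was 39.1%, and at the 197 in all 3 lists 33.5%. These shares were not tested and have no flank values. A site 1 base away from CAGCTG was at 223 sites (30.1%) and 32.7% of flanks (exact p = 0.290). Of the single forms, CATATG was at 6.06% of sites and 3.77% of flanks (adjusted exact p = 0.214), and passed in replicate 3 alone with 6.24% and 1.94%. CAAATG was at 11.3% and 10.2%, and CACGTG, known as the Myc and Max form, at 0.943% and 1.48%.

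Against the intronic peaks with CAGCTG, 3 of the 40 motifs were more frequent at the sites (7.5%) and 3 less frequent (7.5%). TATAAA was at 23.3% against 6.77% (Fisher's exact test, two-sided, adjusted p = 3.3e-08), and this passed in each replicate and without each of them. TAATTA, the homeodomain core, was at 9.70% against 0.398%, which is 1 peak of 251 (adjusted exact p = 2.2e-07). In replicates 1, 2 and 3 its shares were 7.97%, 10.1% and 7.96% against 3.41%, 1.42% and 0.917%. Of these, replicate 1 did not pass (adjusted exact p = 0.214). CAAATG was at 11.3% against 5.18% (adjusted exact p = 0.0351). GAGAGAG, the GAGA factor repeat, was at 3.77% against 12.4% (adjusted exact p = 4.9e-05), CTGCTG at 5.39% against 10.8% (adjusted exact p = 0.0354) and CATTCC at 1.21% against 4.78% (adjusted exact p = 0.0167). Without replicate 1 only the homeodomain core and TATAAA were called, without replicate 2 only TATAAA. Without replicate 3 the calls were TATAAA, the E-box CAAATG and the GAGA factor repeat. The windows of the compared peaks must hold CAGCTG, and their G and C content was 47.2% against 34.5% at the sites. These tests take neither into account.

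Against the intergenic peaks without CAGCTG, 1 motif was more frequent (2.5%) and 0 less frequent (0%), with 2 lower at an unadjusted exact Fisher p under 0.05. The one was TGTTTAC, the Fork head site, at 39 sites (5.26%) against 4 of 331 (1.21%; adjusted exact p = 0.0447). Against the flanks TGTTTAC was at 5.26% and 3.50% (adjusted exact McNemar p = 0.433), and only replicate 3 passed on its own, with 6.24% and 1.72%. Its difference from the intergenic peaks was not called without replicate 1, 2 or 3, where it was 4.30, 4.97 and 2.74 percentage points.

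CAGCTG itself was frequent just beyond the window that the rule bars. Between 51 and 100 bp from the summit it lay at 62 sites (8.36%), against 27 (3.64%) between 450 and 500 bp (exact McNemar test, two-sided, p = 1.3e-04). The shares were 11.96%, 6.11% and 13.8% in replicates 1, 2 and 3, against 3.82%, 5.01% and 4.09%, and replicate 2 alone did not pass (exact p = 0.334). The difference was 4.72 percentage points, and 5.73, 11.1 and 6.40 without replicates 1, 2 and 3. The share fell over the rings, from 7.95% at 100 to 150 bp to 4.45% at 400 to 450 bp. The intergenic peaks had 4.53% between 50 and 100 bp. CAGCTG lay in the deposited peak of 160 sites (21.6%) and within 50 bp of some replicate's own summit at 60 (8.09%), whereas 407 (54.9%) had none within 500 bp. Just outside the barred window, with the whole site ending 51 to 60 bp away, lay 26 sites, and just inside it 27 intronic peaks that were not included. Of the 10 sites in crp, 5 had CAGCTG between 50 and 100 bp, and without crp the difference over all sites was 4.10 percentage points (exact p = 7.6e-04).

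**Figure D4:**
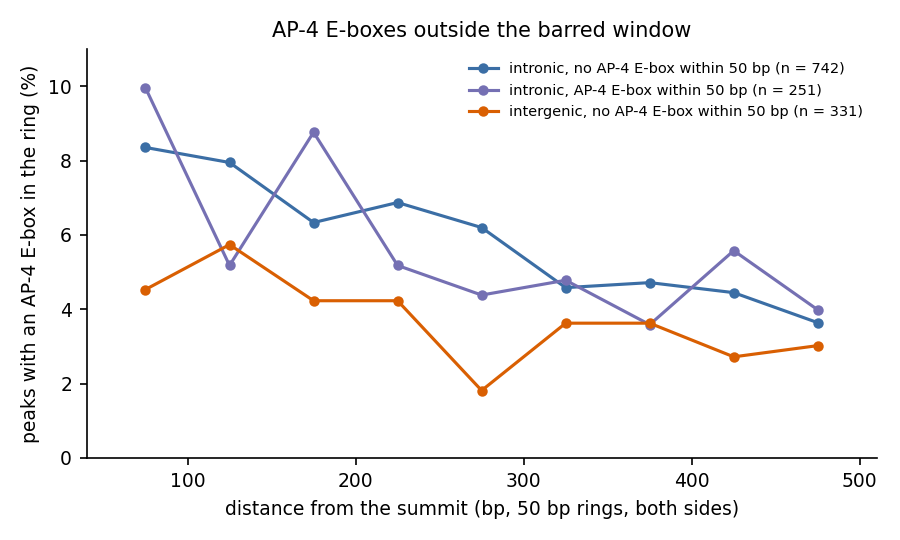
Percentage of peaks with an AP-4 E-box lying whole in each ring of 50 bp around the summit, both sides together, from 50 to 500 bp. The 742 intronic sites without it (blue) fell from 8.36% in the first ring to 3.64% in the last, the 331 intergenic peaks (orange) from 4.53% to 3.02%, and the 251 intronic peaks with a central site (purple) from 9.96% to 3.98%.

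The 742 sites lay in 504 genes, 5.54% of the 9092 protein-coding genes with eligible intronic bases. A single site was in 369 genes, 2 in 85, 3 in 31 and 4 or more in 19, so that 373 sites (50.3%) shared their gene with another. Host genes had a median of 12.02 kb of eligible sequence against 0.464 kb over all 9092. Neighbouring sites within a gene were a median of 2819 bp apart over 238 pairs, and 30 pairs lay within 500 bp and 98 within 2000 bp. Joining overlapping deposited peaks left 715 distinct regions. In the replicates' own lists 418, 626 and 327 genes were hosts, and 208 were hosts in all 3.

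Among the 8 genes with most sites, crp led with 10 sites in 19.8 kb of eligible sequence, 50.6 per 100 kb against 1.38 over all genes, and 6 of them were in all 3 strongest lists. It also held 4 intronic peaks with CAGCTG and a promoter peak. Whether the tagged construct affects the peaks in crp, the tagged gene, was not tested. atos, which encodes Atossa, known for macrophage invasion in the embryo, was next in density among these 8, with 7 sites in 14.2 kb (49.3 per 100 kb) and 6 more with CAGCTG. tara, which encodes a trithorax-group protein, had 8 sites, all in first introns, but 1 alone was in all 3 strongest lists. ush held 7, all in its first intron, 2 of them in all 3 lists. Tlk, the gene of Tousled-like kinase, and Raf, the kinase between Ras and MEK, held 7 each and none in a first intron. sbb, the gene of the corepressor Scribbler, and CG1677 held 7 each, also none in a first intron.

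These 8 genes held 60 sites, and their numbers differed between replicates. crp had 11, 7 and 10 in the lists of replicates 1, 2 and 3, tara 6 in each, and Tlk 6 in each. Raf had 4, 9 and 3, ush 5, 10 and 5, and CG1677 2, 8 and 1, with most in replicate 2. atos had 7, 5 and 8. In ush and Raf the sites bunched near the 5' end, with 4 of 7 and 6 of 7 within 10 kb of the host transcript's start, whereas those of CG1677 lay far into the gene.

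**Figure D5:**
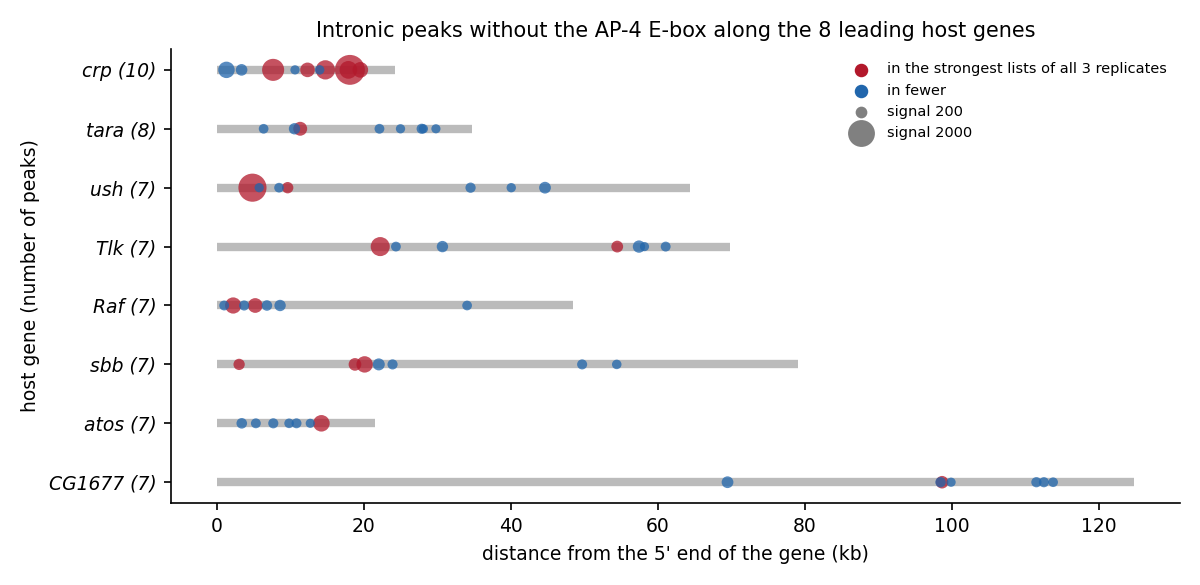
Positions of the sites along the 8 host genes with most of them, in kb from the 5' end of the gene (grey bar, the gene's length). Each point is a site, its area grows with the authors' signal, and red marks those in the strongest lists of all 3 replicates: 6 of 10 in crp, 2 of 7 in ush and 1 of 8 in tara.

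Host genes had a Crp peak at their own promoter less often than the hosts of intronic peaks with CAGCTG. An IDR summit lay within 500 bp of a start in 267 of 504 hosts (53.0%) against 145 of 216 (67.1%), a difference of -14.2 percentage points (Fisher's exact test, two-sided, p = 5.4e-04), and in 38.6% of all genes with eligible sequence. The 2 groups share 82 genes, which the test does not take into account. In the replicates' own lists the shares were 54.3%, 51.4% and 52.0% against 67.7%, 63.1% and 61.1%. The call was lost without replicate 1, where the difference was -8.84 points (exact p = 0.156), and without replicate 3, where it was -8.58 points (exact p = 0.174).

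Host genes were also counted in lists of known pathways, as a description without a test. The lists were chosen with results of these data known, and 504 distinct genes of the 18 lists, 104 of them hosts, entered. Over all 9092 genes with eligible intronic bases, 5.54% were hosts. Hosts had a median of 12.02 kb of eligible sequence against 0.464 kb over all these genes. Counts of hosts take no account of that length, so shares of sites are set beside shares of eligible bases. Of 28 genes of insulin, TOR and growth control with eligible introns, 9 were hosts, and their 18 sites were 2.43% of all sites in 0.399% of eligible bases. Tlk held 7 of these, and the shares without it were not computed. The list also takes in growth genes outside the insulin and TOR pathways, Tlk among them. InR, the insulin receptor gene, held 3, the strongest with a relative signal of 1.26, 1.78 and 0.715 in replicates 1, 2 and 3. ImpL2, which encodes a secreted insulin-binding protein, held 2, the stronger with 0.783, 2.61 and 0.659. In both genes replicate 2 was highest.

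Of 25 genes of the EGFR and Ras pathway 8 were hosts, with 17 sites (2.29% of sites, 0.748% of bases). They were vn, the gene of the EGFR ligand Vein, S, which encodes Star, needed to process other EGFR ligands, the adaptor gene drk, Raf, the nuclear factor gene pnt and the inhibitors aos and sty, besides ths, which encodes an FGF ligand. Of 34 genes of the Wnt, Hedgehog and TGF-beta pathways 9 were hosts, with 20 sites (2.70% against 1.08%), led by Dad, which encodes an inhibitory Smad, and shn, a partner of the Smads, with 6 sites. The Notch pathway had 3 hosts of 15 with 4 sites (0.539% against 0.461%). Of 7 genes of GATA factors and their cofactor, ush alone was a host, with 7 sites (0.943% against 0.236%).

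The next lists hold chromatin and transcription factor genes. Polycomb, trithorax and other chromatin genes had 10 hosts of 35 with 23 sites (3.10% of sites, 0.610% of bases), led by Trl, trx, the gene of a histone methyltransferase, and osa. Nuclear receptor and ecdysone response genes had 8 hosts of 22 with 19 sites (2.56% against 1.34%), led by Hr4, a nuclear receptor gene with 6 sites. The bHLH factor genes had 5 hosts of 26 with 18 sites (2.43% against 0.467%), 10 of them in crp and 5 in Mnt, which encodes a Max-binding repressor, besides sim, Myc and sima. Homeobox genes outside the Hox clusters had 3 hosts of 37 (0.404% against 0.965%), Hox and homeotic genes 3 of 11, Abd-B, hth and lab (0.539% against 0.668%), and segmentation genes 3 of 19 (0.539% against 0.299%).

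The last lists hold neuronal, RNA-binding and cell architecture genes. Ion channel and neuronal signalling genes had 1 host of 32, the phosphodiesterase gene dnc, with 2 sites (0.270% against 2.11%). Axon guidance and synapse genes had 9 hosts of 42 with 16 sites (2.16% against 3.45%), led by fra, the netrin receptor gene, with 4. RNA-binding protein genes had 11 of 32 with 14 sites (1.89% against 2.96%), led by mub and brat. Junction and polarity genes had 7 of 30 (0.943% against 1.37%), muscle genes 6 of 29 (1.21% against 1.40%), led by Mef2, and actin and cell shape genes 9 of 32 (1.35% against 0.704%). Tracheal and tube genes, the tissue of the cropped phenotype, had 7 of 27 with 10 sites (1.35% against 0.906%), led by grh, an epithelial factor gene, rib and pnt.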

How the data were processed

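ChIP-seq peaks of crp-GFP embryos were analysed in 3 biological replicates. Per the labels' protocols, chromatin was sonicated to 200 to 800 bp. The authors deposited an IDR list and a relaxed list per replicate on dm6, each with a signal value per peak on the scale of their peak caller and a summit offset in bases from the peak start. Aligner, peak caller, IDR threshold and depth: not given in the sources used here. Wilson intervals cover counting error only.

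Summits were placed on the Ensembl release 115 gene models. Where introns of several genes overlapped, the shortest gene was the host, and the longest transcript with an intron there gave its order. Eligible bases were all intronic bases outside exons of protein-coding transcripts and over 500 bp from every protein-coding start. Motifs were searched on both strands in the RefSeq copy of dm6, in windows of 101 bases. The flank was a window of the same width 500 bp toward higher coordinates, with no rule on exons or starts.

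Shares were tested against eligible bases with exact binomial tests, against flanks with exact McNemar tests and against other peak classes with Fisher's exact test, all two-sided. Adjustment was by Benjamini-Hochberg over the 40 fixed motifs, the 2079 hexamers or the 7 chromosome arms and chromosomes, with a threshold of 0.05. These tests treat peaks as independent, which neighbours in 1 gene are not. p-values compare sites, and with 1 group no test compares conditions. The code was tested on simulated data.

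The sites, motifs and gene lists were chosen with earlier results of these data known. Of 559 listed gene names, 528 matched. The text names the hosts of the 15 strongest sites in all 3 strongest lists, the 8 genes with most sites, up to 3 leading hosts per gene list, motifs past the threshold and the 6 hexamers of lowest p. Other genes and motifs that are named were chosen after their values were seen. Python 3.11.15, numpy 2.4.6, scipy 1.17.1, pandas 2.3.3 and matplotlib 3.10.9 were used. The alternatives were other flanks, windows, distance limits and lists of peaks.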

Additional observations from a re-analysis of the deposited data

How the results depend on the processing

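Of 80 alternatives of tested values, 65 kept the direction and the side of the threshold, and 8 changed direction. Of 52 alternatives of counts of calls, 17 stayed within 1.5 times the count reported. The first-intron, near-start, non-coding start and CAGCTG ring shares kept theirs in each alternative that gave a value. No near-start share exists over 1000 bp from every start, and no CAGCTG ring share where CAGCTG is barred within 100 bp. The difference in support from the intergenic peaks ran from -1.02 to 4.42 percentage points when each replicate was left out, and was 3.96 in the stronger 50% of the list, 4.26 with 1 site per host gene, 0.192 over 1000 bp from every start, 0.531 with CAGCTG barred within 100 bp and 2.10 with summits shared within 200 bp. From the intronic peaks with CAGCTG it ran from -31.8 to -2.84 when each replicate was left out, and was 2.49 in the stronger 50% and -3.00 in the whole relaxed lists. The host promoter difference ran from -12.9 to -8.58 when each replicate was left out, and was -5.94 in the stronger 50% and -6.32 over 1000 bp from every start. Leaving out each replicate gave 0 to 2 chromosome calls, 0 to 2 motif calls against flanks, 1 to 3 against intronic peaks with CAGCTG, 0 against intergenic peaks and 0 to 50 hexamers. That stronger 50% gave 0, 0, 3, 0 and 0 of these in the same order. With 1 site per host gene there were 1 chromosome call, 3 motifs against intronic and 0 against intergenic peaks, and 120 hexamers. CAGCTG barred within 100 bp gave 10 and 0 motifs against those classes. The flank toward lower coordinates gave 5 motifs and the one 1000 bp away gave 1 motif and 74 hexamers. Sites within 25 bp gave 1 motif and 19 hexamers, and over 1000 bp from every start there were 114 hexamers. Several alternatives were chosen after seeing the data. The sites in all 3 strongest lists gave 0 chromosome calls, 1, 3 and 0 motifs, 0 hexamers and a host promoter difference of -7.81 points; leaving out crp changed the motif calls against intronic peaks with CAGCTG to 5. Leaving out repeats, done for the placement and chromosome results, gave 2 chromosome calls, that for chromosome 4 being lost. Host genes alone, done for the first-intron and near-start shares, changed neither call. The cause of these changes was not tested. No paired analysis was possible because all samples belong to 1 group.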
